A study of Homo sapiens with 6 samples.

Results

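The inhibin and activin system is described here through 9 genes. They are the ligand subunit genes INHA, INHBA, INHBB and INHBE, the follistatin genes FST and FSTL3, and the receptor genes ACVR1B, ACVR2A and ACVR2B. The group was selected on the data themselves, because INHBB was lower in one set of libraries than in the other, and the remaining 8 genes were taken in as its partners, antagonists and receptors. All 9 symbols were found among the 22354 loci of the deposited count table. The values that chose INHBB are given as a description, with no p-value.

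Activins and inhibins are secreted dimers of the TGF-beta superfamily. Joined beta subunits make an activin, and a beta subunit joined to the alpha subunit makes an inhibin, which blocks activin at its receptors. Follistatins bind activin outside the cell and keep it from its receptors, while free activin binds a type II receptor that brings in a type I receptor, and this one phosphorylates SMAD2 and SMAD3. Activin is known to restrain the growth of many cultured epithelial cells.

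RNA was sequenced from HTori-3.1, an immortalized line of human thyroid follicular epithelial cells, in 6 libraries. The 3 control libraries came from cells with the genotype label wild type, and the other 3 from cells labelled BMAL1 knockout, made with Cas9 and a guide RNA against BMAL1 and grown from single picked clones. Both groups had received etoposide, a topoisomerase poison that breaks DNA and drives cells into senescence, at 2 μM, and the sources give the exposure as 12 h in the sample label and 24 h in the protocol. The total counts were 26893063, 27029060 and 28513703 in control replicates 1 to 3, and 43148059, 29860233 and 43563391 in replicates 1 to 3 with the knockout label. The number of clones behind these libraries, and whether replicates were separate cultures, were not given in the sources used here, so a difference between clones and an effect of the knockout cannot be told apart, and p-values measure the spread between these libraries, which may be technical.

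BMAL1 encodes a transcription factor of the circadian clock and was the gene targeted. Its level was 11.3, 12.2 and 14.6 CPM in the control libraries, where CPM is the TMM-scaled count relative to the library total. The cells labelled BMAL1 knockout gave 17.9, 19.8 and 19.4 CPM. The transcript was therefore higher in all 3 labelled knockout libraries than in any control, with a log2 fold change of 0.58 ± 0.11 (SE) and an edgeR quasi-likelihood p of 0.0204 after Benjamini-Hochberg adjustment over 14860 loci. A count over the whole gene does not show whether a small edit was made, so every direction below is that of the labels. The study's methods describe a western blot of the picked clones to check the knockout, and no protein was measured in the data used here. The next 4 genes are known to be activated by BMAL1 with CLOCK, and they were chosen after their values were seen. NR1D1, which encodes the repressor REV-ERB alpha, had means of 7.24 and 3.05 CPM (log2 fold change -1.25, edgeR, adjusted p = 0.00146, lower in 3 of 3 labelled knockout libraries). NR1D2, its close relative, had 68.2 and 39.7 CPM (log2 fold change -0.78, edgeR, adjusted p = 0.00233, lower in 3 of 3). Both passed in all 16 alternatives, with an adjusted p up to 0.0145 for NR1D1 and 0.016 for NR1D2. For DBP and CIART the log2 fold changes were 0.03 and -0.09, and neither passed in any fit. The BMAL1 call depended on single libraries. In the same edgeR test the adjusted p was 0.0896 without control replicate 1, 0.113 without control replicate 2, 0.0749 without labelled knockout replicate 2 and 0.0598 without labelled knockout replicate 3. The log2 fold change in these 4 fits, which have fewer samples, was 0.503, 0.551, 0.553 and 0.565. Over all alternatives run the adjusted p lay between 0.00163 and 0.113. BMAL1 exons share 421 bases with a long noncoding RNA gene on the opposite strand, and since no strand setting was given in the sources, their reads cannot be told apart.

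Markers of the labelled cell type were mixed. Of 10 thyroid follicular markers, PAX8, a transcription factor of thyroid cells, was the most abundant, at a mean of 133 CPM in control and 110 CPM in labelled knockout libraries. FOXE1, another such factor, had 48.0 and 40.0 CPM. NKX2-1 and IYD had 0 counts in all 6 libraries, and thyroglobulin (TG) had 13, 0 and 0 counts in control and 12, 8 and 11 in labelled knockout libraries, means of 0.162 and 0.264 CPM. The summed level of the 10 markers was 173, 173 and 201 CPM in control replicates 1 to 3 and 130, 149 and 173 CPM in the labelled knockout replicates. The transcripts of a differentiated follicle were thus at or near 0 while PAX8 and FOXE1 were present. The 6 epithelial markers were led by KRT8, a keratin, at 1410 and 1160 CPM, and none was at 0 counts in all libraries. Their sum was 2990, 3040 and 2900 CPM in control and 2540, 2480 and 2560 CPM in labelled knockout libraries. The lower sum rests on KRT8 and KRT18, and the other 4 markers had higher means with the knockout label, with overlapping groups. These were KRT7, at 710 and 760 CPM, KRT19, at 7.67 and 8.97, EPCAM, at 0.125 and 0.381, and CDH1, at 0.2333 and 0.3004. KRT8 did not pass in the main fit (log2 fold change -0.28, edgeR, adjusted p = 0.0507) and passed in 4 of 16 alternatives, with DESeq2, with limma-voom, with the GC trend removed and without labelled knockout replicate 1. Its adjusted p lay between 0.000498 and 0.253 over the 16. KRT18, the partner keratin of KRT8, had 852 and 602 CPM (log2 fold change -0.50, edgeR, adjusted p = 0.00583, lower in 3 of 3 labelled knockout libraries), with an adjusted p of 0.0524 without control replicate 2 and between 3.53e-08 and 0.0524 over all alternatives. KRT8 and KRT18 share 525 exon bases on opposite strands, so reads there cannot be told apart.

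INHBB encodes the beta B subunit, which forms activin B or, with the alpha subunit, inhibin B. It lies on the forward strand of chromosome 2, at chr2:120346136-120351803 in hg38, and no other annotated gene overlaps it. Because the choice of genes turned on INHBB, the 250 bases before its start are shown, from RefSeq's promoter table for GRCh38.p14, at chr2:120345886-120346135 on the forward strand and written 5′ to 3′. Capitals mark GC boxes, GGGCGG on either strand, which may overlap each other.

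INHBB: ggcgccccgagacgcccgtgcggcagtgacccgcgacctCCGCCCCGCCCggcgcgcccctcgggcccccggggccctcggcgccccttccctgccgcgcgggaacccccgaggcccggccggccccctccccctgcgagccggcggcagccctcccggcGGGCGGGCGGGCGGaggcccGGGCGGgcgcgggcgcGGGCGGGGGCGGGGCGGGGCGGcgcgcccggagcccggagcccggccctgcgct

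The full window of 250 bases before and 50 after the start held 10 GC boxes, 8 on the strand shown and 2 on the other. Its GC content was 88.7%, and 5 of the 35116 promoters in the table had a higher one. A GC box was present in 45% of all promoters, and this motif was searched after the sequence had been seen. Of the 9 promoter entries found for these genes, 5 held it. Besides INHBB, there were 5 matches in ACVR2B, 4 in FSTL3, 3 in FST and 3 in 1 entry of ACVR1B.

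The INHBB values were 4.70, 4.67 and 4.0 CPM in the control libraries, from 126, 125 and 112 counts. In the labelled knockout libraries they were 1.92, 1.08 and 1.69 CPM, from 82, 33 and 75 counts. All 3 labelled knockout libraries were below all 3 controls, and replicate 2 was the lowest. Fewer cells expressing a gene and less RNA of it per cell cannot be told apart in such bulk libraries. The means were 4.46 ± 0.396 CPM (SD, n = 3) and 1.56 ± 0.434 CPM, and the log2 fold change was -1.49 ± 0.22 (SE), a level 2.81-fold lower. These numbers are the ones INHBB was selected on and are not evidence for it. The coefficient of variation was 8.89% in control libraries, where counting alone gives 9.09%, and 27.8% in labelled knockout libraries, where counting gives 12.6%.

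**Figure D1:**
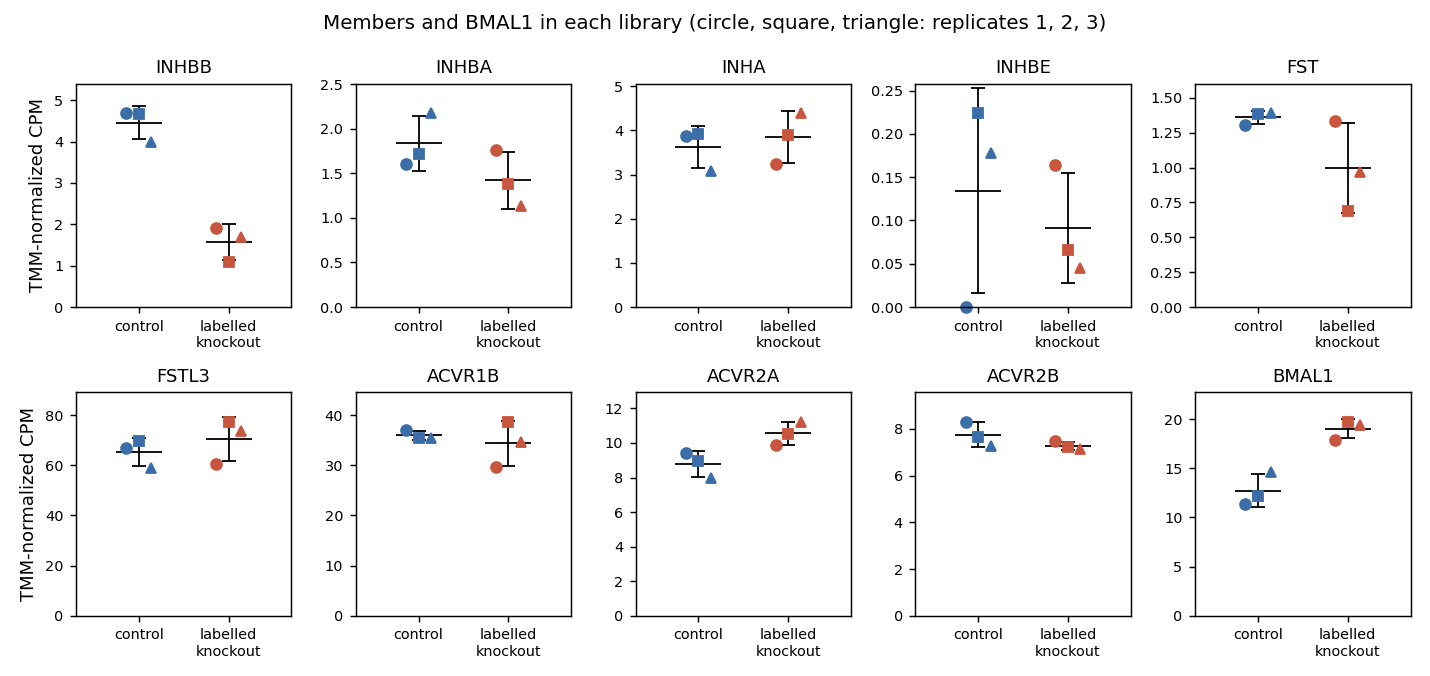
TMM-normalized CPM of the 9 genes and BMAL1 in each library, control in blue and labelled BMAL1 knockout in red, with the mean (bar) and 1 SD for 3 libraries a group; each panel has its own axis from 0. The groups of INHBB, ACVR2A and BMAL1 do not overlap, and those of the other 7 genes do.

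INHBA encodes the beta A subunit of activin A, at chr7:41667168-41705834 on the reverse strand. Its values were 1.60, 1.72 and 2.18 CPM in control libraries. They were 1.76, 1.38 and 1.13 CPM in labelled knockout libraries. The groups overlapped, since labelled knockout replicate 1 was above control replicates 1 and 2. The log2 fold change was -0.37 with a 95% interval from -0.90 to 0.16, so neither a fall nor a small rise was resolved at 42 to 75 counts a library, and edgeR gave an adjusted p of 0.484. INHBA shares 248 exon bases with INHBA-AS1, an antisense gene.

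INHA encodes the alpha subunit, which turns a beta subunit into an inhibin, at chr2:219569162-219575711. The control libraries had 3.88, 3.93 and 3.07 CPM. The labelled knockout libraries had 3.23, 3.90 and 4.40 CPM. The groups overlapped, with control replicate 3 the lowest and labelled knockout replicate 3 the highest. The log2 fold change of 0.09 had a 95% interval from -0.30 to 0.48 (edgeR, adjusted p = 0.857), and its sign changed when either of those libraries was left out.

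INHBE encodes the beta E subunit, best known from liver, at chr12:57452323-57459280. It had 0, 6 and 5 counts in control libraries and 7, 2 and 2 in labelled knockout libraries, which is 0, 0.224 and 0.178 CPM against 0.164, 0.0655 and 0.0451 CPM. These levels lie around the floor that 3 counts set in each library, from 0.0677 to 0.112 CPM, which covers counting error only. INHBE was the only gene of the 9 that the low-count filter removed, and no fold change is given for it.

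The makeup of the beta subunit pool follows from these values when each gene is divided by its exon length. On the scale of CPM per kb of exon, INHBB made up 88.3%, 83.8% and 79.5% of the sum of INHBA, INHBB and INHBE in the control libraries. The share was 69.3%, 64.3% and 77.8% in labelled knockout libraries. On this scale INHBB was the larger part of the pool in all 6 libraries, but this rests on exon lengths of 8284 bases for INHBA and 3206 for INHBB. By counts, undivided by length, INHBA made up 25.4% to 34.3% of the pool in control libraries and 45.7%, 54.5% and 39.4% in labelled knockout libraries, and it had more counts than INHBB in labelled knockout replicate 2. The summed beta subunit level was 1.66, 1.74 and 1.57 CPM per kb in control and 0.865, 0.525 and 0.679 CPM per kb in labelled knockout libraries. This sum falls with INHBB, on which the genes were selected, and rests on 77 to 178 counts a library. The ratio of INHBB to INHA, as levels per kb, was 0.630 ± 0.0308 (SD, n = 3) in control and 0.214 ± 0.0819 in labelled knockout libraries. This ratio has INHBB, the gene selected on, in its numerator and was not tested.

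**Figure D2:**
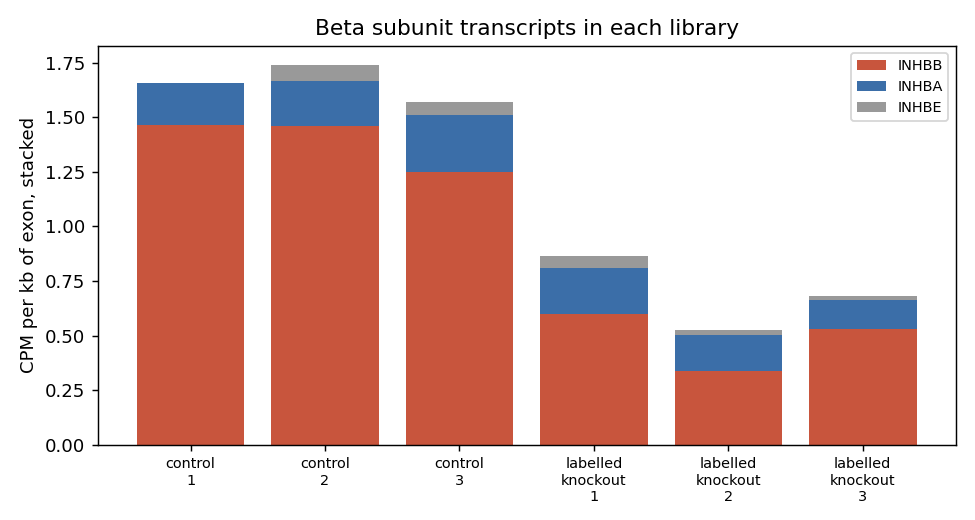
Stacked bars of INHBB (red), INHBA (blue) and INHBE (grey) in CPM per kb of exon for each of the 6 libraries. The bars are 1.57 to 1.74 high in control and 0.525 to 0.865 high in labelled knockout libraries, and INHBB is the largest block of each.

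FSTL3 encodes follistatin-like 3, a secreted activin antagonist, at chr19:676392-683392. Its values were 66.9, 69.6 and 58.9 CPM in control libraries. They were 60.4, 77.4 and 73.4 CPM in labelled knockout libraries. The groups overlapped because labelled knockout replicate 1 lay among the controls. Its log2 fold change of 0.11 had a 95% interval from -0.11 to 0.34 (edgeR, adjusted p = 0.636). Counting alone gives a coefficient of variation of 1.91% for FSTL3 in labelled knockout libraries, against 12.7% observed, so depth was not what limited its precision.

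FST encodes follistatin, which encloses an activin dimer almost irreversibly, at chr5:53480626-53487134. The control libraries had 1.31, 1.38 and 1.39 CPM, a narrow range. The labelled knockout libraries had 1.33, 0.688 and 0.970 CPM. Replicates 2 and 3 were below every control, and replicate 1 lay among them. The log2 fold change was -0.43, with a 95% interval from -1.04 to 0.18 (edgeR, adjusted p = 0.479), and the counts ran from 21 to 57. The coefficient of variation of FST was 3.56% in controls, below the 16.4% that counting alone gives.

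Per kb of exon, FSTL3 made up 97.5% to 97.9% of the follistatin transcripts in control libraries and 97.6% to 99% in labelled knockout libraries. The follistatin pool was thus nearly all FSTL3 in every library. The level of FSTL3 per kb was 13.3, 13.2 and 12.4 times the summed beta subunit level per kb in control libraries, and 23, 48.6 and 35.7 times in the labelled knockout libraries. This ratio has INHBB in its denominator and was not tested. Transcript levels do not measure the amount of secreted protein.

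ACVR1B encodes ALK4, the type I receptor of activin, at chr12:51951699-51997078. It had 37.1, 35.5 and 35.4 CPM in control libraries. It had 29.7, 38.7 and 34.7 CPM in labelled knockout libraries. The latter held both the lowest and the highest value of all 6, replicate 1 and replicate 2. The log2 fold change was -0.07, with a 95% interval from -0.29 to 0.16 (edgeR, adjusted p = 0.797), and without labelled knockout replicate 1 it was 0.03.

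ACVR2A encodes a type II receptor that binds activin directly, at chr2:147844517-147930826. Its values were 9.43, 8.94 and 7.96 CPM in control libraries. They were 9.89, 10.5 and 11.2 CPM in labelled knockout libraries. Each labelled knockout library was above each control, by a narrow margin between labelled knockout replicate 1 and control replicate 1. The log2 fold change was 0.27, with a 95% interval from 0.00 to 0.53, and it did not pass the test over all loci (edgeR, unadjusted p = 0.047, adjusted p = 0.288, higher in 3 of 3 labelled knockout libraries). ACVR2A shares 431 exon bases with ORC4 on the opposite strand, so some of its counts may belong to that gene.

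ACVR2B encodes the second type II receptor, at chr3:38453890-38493142. The control libraries had 8.31, 7.67 and 7.25 CPM. The labelled knockout libraries had 7.47, 7.21 and 7.15 CPM. The groups overlapped, and the labelled knockout values spread little, with a coefficient of variation of 2.35% where counting alone gives 5.92%. For ACVR2B the log2 fold change was -0.09, with a 95% interval from -0.36 to 0.18 (edgeR, adjusted p = 0.772). As levels per kb, ACVR2A made up 73.4%, 74% and 72.8% of the type II receptor transcripts in control libraries and 76.3%, 78% and 79.3% in labelled knockout libraries. ACVR2A was thus the main type II receptor transcript of this pair in all 6 libraries, with a share that was higher in each labelled knockout library than in each control; this difference was not tested.

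Among the 8 genes other than INHBB, a two-sided exact permutation test of 3 against 3 libraries on CPM gave p from 0.1 for ACVR2A to 0.7 for ACVR1B and INHBE, and BMAL1 also had 0.1. The smallest p that this design allows is 0.1. Of the 9 genes, 8 entered the edgeR fit. With INHBB set aside as the gene selected on this contrast, 0 of the 7 others passed an adjusted p under 0.05. In the same fit 2.51% of all 14860 loci passed, 1.43% lower and 1.08% higher, and nothing is read from the count for these genes. Groups without any overlap in CPM were seen for 2 of the 8, INHBB and ACVR2A, beside 23.3% of all loci. None of the 7 passed with DESeq2 or limma-voom either, and 1 of them, ACVR2A, had an unadjusted p under 0.05 in edgeR. Of all 14860 loci, 1350 were higher and 1156 lower at that unadjusted p, and nothing is read from the 1 gene. The log2 fold changes of the 7 ran from -0.43 to 0.27 with a median of -0.07, and the median of all loci was 0.01.

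**Figure D3:**
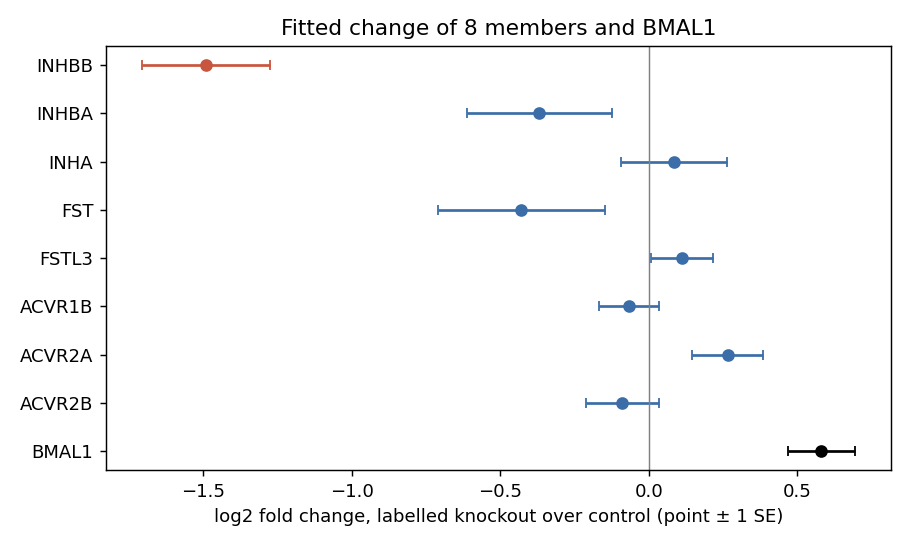
Log2 fold change of labelled knockout over control for the 8 fitted genes and BMAL1 (black), as the edgeR estimate with 1 SE. INHBB (red), the gene the group was selected on, lies at -1.49, and the other 7 lie between -0.43 and 0.27.

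Levels of the 9 genes were ordered per kb of exon, with exon length taken as all annotated exon bases of the gene. In control libraries FSTL3 had the highest level per kb, 21.5 ± 1.84 CPM per kb (SD, n = 3), then ACVR1B at 6.35 ± 0.168 and INHA at 2.22 ± 0.293. INHBB and ACVR2A followed at 1.39 ± 0.124 and 1.36 ± 0.116 CPM per kb, with overlapping ranges. FST and ACVR2B overlapped as well, at 0.494 ± 0.0176 and 0.493 ± 0.0341 CPM per kb. INHBA had 0.221 ± 0.0367 and INHBE 0.0441 ± 0.0389 CPM per kb. An antagonist and the type I receptor thus stood above every ligand subunit on this scale. In labelled knockout libraries the first 3 places were the same, with FSTL3 at 23.2 ± 2.94 CPM per kb, and ACVR2A took the next place at 1.64 ± 0.105. INHBB, at 0.488 ± 0.135 CPM per kb, then overlapped with ACVR2B at 0.463 ± 0.0109, which overlapped with FST at 0.363 ± 0.118. By the mean over all 6 libraries, FSTL3 had a higher level per kb than 85.8% of the 13557 kept loci with a known exon length, ACVR1B than 54.5% and INHBA than 6.89%.

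**Figure D4:**
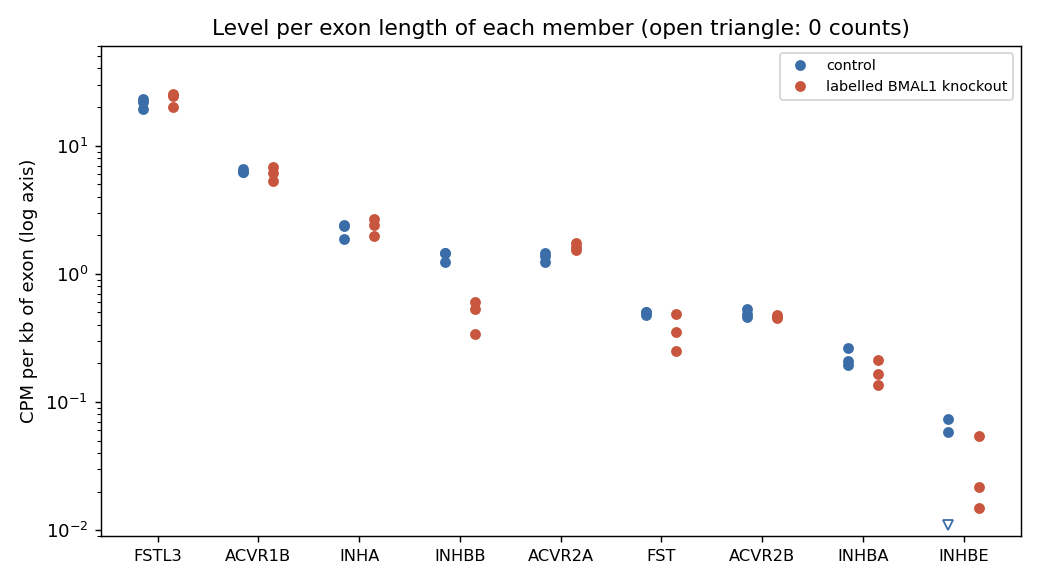
Level of each gene in CPM per kb of exon on a log axis, 1 point a library, in the order of the control means; the open triangle marks the control library with 0 counts of INHBE. INHBB lies beside ACVR2A in control libraries and beside ACVR2B and FST in labelled knockout libraries.

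The promoter table held 9 entries for 8 of the 9 genes, with a pair of entries for ACVR1B. The E-box CACGTG, the element that BMAL1 binds together with CLOCK, was searched on both strands. It is its own reverse complement, so each match counts on both strands. It was found in 1 of the 9 entries, ACVR1B, starting 86 bases before the gene's start, and in 7.26% of all 35116 promoters. The wider E-box CANNTG, which takes in CACGTG, was in 6 of the 9 entries and in 68.7% of all promoters, and INHBB, ACVR2A and ACVR2B had none in this window. The palindromic SMAD element GTCTAGAC was in 0 of the 9 and in 0.202% of all promoters. Stretches of 46 bases around the ACVR1B E-box and around the wider E-box of FST are shown as an example of each motif, the former at chr12:51951593-51951638 and the latter at chr5:53480445-53480490, both on the forward strand of GRCh38.p14. Capitals mark the E-box.

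ACVR1B: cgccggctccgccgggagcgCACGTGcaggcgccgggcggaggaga
FST: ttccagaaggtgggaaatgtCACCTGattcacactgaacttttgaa

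ACVR1B, the entry with the full E-box, had a log2 fold change of -0.07 and INHBB, with no E-box in its window, -1.49. INHBB was selected on that value, so nothing about the motif is read from this pair. A match of letters is not a bound site, and the absence of a match concerns this window alone.

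The genes around INHBB on chromosome 2 show the rest of its chromosome segment. The 5 kept genes before INHBB were TMEM177, PTPN4, EPB41L5, TMEM185B and RALB, and the 5 after it were GLI2, TFCP2L1, CLASP1, NIFK and TSN. Their log2 fold changes ran from -0.10 for CLASP1 to 0.70 for TFCP2L1, with a median of 0.02. RALB, a small GTPase whose start lies 106 kb before that of INHBB, had -0.05 ± 0.08 (SE), and GLI2, a Hedgehog transcription factor 389 kb after it, had 0.05 ± 0.14. None of the 10 passed an adjusted p under 0.05, and 5 of the 10 had a negative value. INHBB itself, at -1.49, was selected for its value, so its place beside these genes is a description.

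**Figure D5:**
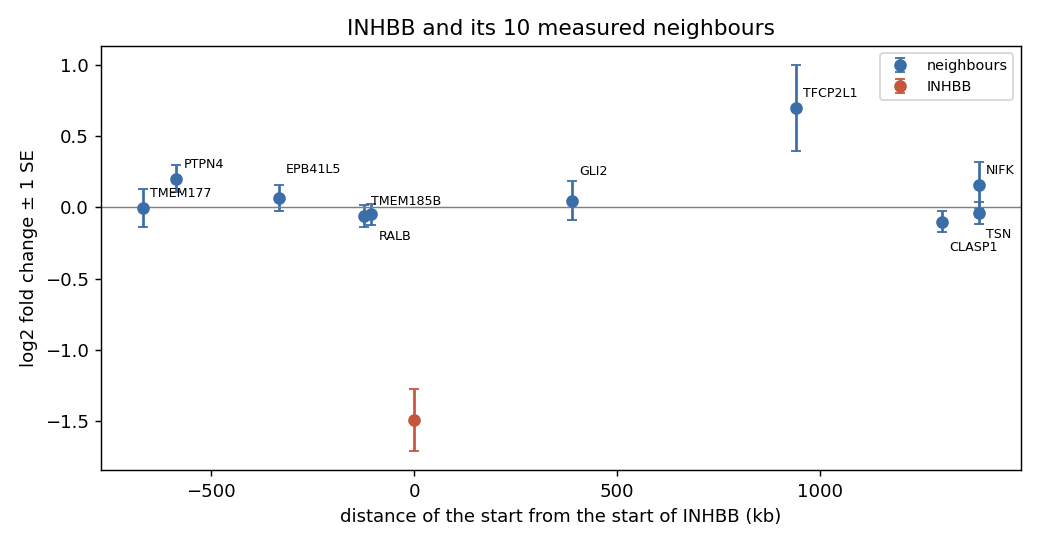
Log2 fold change with 1 SE of INHBB (red) and its 10 measured neighbours (blue) against the distance between gene starts in kb. The neighbours lie between -0.10 and 0.70 and INHBB at -1.49.

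The 5 named genes whose log2 CPM was most like that of INHBB across the 6 libraries, among 12458 candidates, were MOK, URI1, RRS1, MAPKAPK3 and HSD17B1, with Pearson's r of 0.996, 0.994, 0.993, 0.992 and 0.991. Each was lower in the labelled knockout libraries, like INHBB, but by less. MOK, a protein kinase, had 36.6 CPM in control and 29.4 CPM in labelled knockout libraries, a log2 fold change of -0.31. HSD17B1, an enzyme that makes estradiol, had 3.94 and 2.97 CPM and a log2 fold change of -0.40. These correlations are over 6 libraries in 2 groups, share the group difference and the library scaling, and are a description.

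Markers of other cell types were read in the same libraries, and the sums of the leukocyte and endothelial lists, like that of the epithelial list, were lower in each labelled knockout library than in any control, though only KRT8 and KRT18 of the 6 epithelial markers had lower means. Of 5 leukocyte markers, CD3E had 0 counts in all 6 libraries, and the summed level was 19.0, 19.6 and 17.2 CPM in control and 13.8, 11.4 and 12.0 CPM in labelled knockout libraries. CD68 was the most abundant of them at 12.1 and 10.0 CPM, and PTPRC fell from 6.40 to 2.36 CPM (log2 fold change -1.43, edgeR, adjusted p = 0.00127, lower in 3 of 3 libraries). At an adjusted p under 0.05 in edgeR, 1 of the 2 kept leukocyte markers, PTPRC, and 0 of the 3 kept endothelial markers passed. Groups without overlap in CPM were likewise seen for 1 of the 2 and 0 of the 3, beside 23.3% of all loci. The part of the leukocyte, endothelial and epithelial lists in the INHBB difference was not tested. The summed level of 7 fibroblast markers was 790 to 926 CPM in control and 718 to 989 CPM in labelled knockout libraries, nearly all of it COL1A1, while DCN and LUM had 0 counts throughout. The 5 endothelial markers, led by VWF at 1.20 and 0.989 CPM, summed to 2.27, 2.28 and 2.54 CPM in control and 1.73, 1.47 and 2.08 CPM in labelled knockout libraries. None of the 5 was at 0 counts in all libraries, and the 3 C cell markers summed to at most 1.05 CPM, led by SYP, with CALCA at 0 counts.

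Libraries also differed in how their values followed exon GC content. The slope was -0.12 log2 units per 10 points of GC in labelled knockout replicate 1 and -0.095 in control replicate 3, and between 0.04 and 0.07 in the other 4. INHA, FSTL3 and ACVR1B, with exon GC of 60.2%, 65.6% and 51.9%, were lowest of their group in both of these libraries. So was ACVR2A, which had the lowest exon GC of the 9 genes, 37.3%. INHBB and INHBE, with exon GC of 56.7% and 54.3%, were instead highest of their group in labelled knockout replicate 1. In control replicate 3 INHBB was lowest of its group and INHBE was not. INHBA and FST, with exon GC of 41.4% and 45.8%, were highest of their group in both libraries. ACVR2B, at 47.9%, was lowest in control replicate 3 and highest in labelled knockout replicate 1. With each library's GC trend removed, the log2 fold change was 0.11 for INHA, 0.13 for FSTL3, -0.04 for ACVR1B and -1.45 for INHBB, so the INHBB value moved by less than its SE.

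The rest of the pathway was followed in a list of 79 other genes in 5 roles, of which 66 passed the low-count filter. At an adjusted p under 0.05 in edgeR, 5 rose and 3 fell, 8 of 66, beside 2.51% of all loci. The median log2 fold change of the 66 was -0.02, beside 0.01 for all loci. The list was written with earlier results of these data known. By role, those called were first 3 of 16 genes listed as answering SMAD2 and SMAD3, namely ID2, ID4 and CDKN2B. The roles are the list's own labels, and which SMADs act on these 3 genes was not tested. Next were 2 of 19 SMAD mediators and regulators and 2 of 9 extracellular regulators. Last were 1 of 12 other receptors and co-receptors and 0 of 10 other ligands, and the roles were not compared by a test. Among the 10 ligands, 4 had an unadjusted p under 0.05 in edgeR, 1 higher and 3 lower. Of all 14860 loci, 1350 were higher and 1156 lower at that unadjusted p. At an adjusted p under 0.05, DESeq2 called 0 of the ligands and limma-voom 0. For the other roles, in the order above, DESeq2 called 5, 3, 4 and 1 genes and limma-voom 3, 2, 2 and 0.

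The 5 genes of this list that rose were SMAD9, SMAD6, ID2, ID4 and CDKN2B. SMAD9, a mediator of BMP receptors, had 5.96, 5.68 and 6.32 CPM in control and 11.1, 12.8 and 12.1 CPM in labelled knockout libraries, a log2 fold change of 1.00 ± 0.12 (SE; edgeR, adjusted p = 0.00182). SMAD6, an inhibitory SMAD, had 17.1 and 26.3 CPM as means (log2 fold change 0.62, adjusted p = 0.0168 in edgeR). ID2 and ID4, inhibitors of helix-loop-helix factors, had log2 fold changes of 0.79 and 1.49 (edgeR, adjusted p = 0.0025 and 0.0317). CDKN2B, an inhibitor of cyclin-dependent kinases that TGF-beta induces, had 6.61 and 10.5 CPM (log2 fold change 0.66, edgeR, adjusted p = 0.0163). These 5 genes were higher in 3 of 3 labelled knockout libraries than in any control. They were picked by a test on these same libraries, so this is no separate support. Groups did not overlap, in either direction, for 23.3% of all loci.

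The 3 genes that fell were BMPER, NOG and ENG. BMPER, which binds BMPs, had means of 9.24 and 5.03 CPM (log2 fold change -0.87, edgeR, adjusted p = 0.0159). NOG, the BMP antagonist noggin, had 8.17 and 5.24 CPM (log2 fold change -0.64, edgeR, adjusted p = 0.034). ENG, the co-receptor endoglin, had 77.8 and 59.6 CPM (log2 fold change -0.38, edgeR, adjusted p = 0.0477). All 3 were lower in each labelled knockout library than in any control, which again is no separate support. The most abundant gene of each role did not pass in the main fit. TGFB2, a TGF-beta ligand, had a log2 fold change of -0.25 and BMPR2, a type II receptor, 0.04. GREM1, a BMP antagonist, had -0.30, FKBP1A, which holds type I receptors inactive, -0.23 and FN1, the fibronectin gene, -0.38. These last 3 passed in some alternatives, FN1 in 7 of 16 and GREM1 and FKBP1A in 4 each. With DESeq2 the adjusted p was 0.00284 for FN1, 0.003 for GREM1 and 0.0155 for FKBP1A, and without labelled knockout replicate 1 it was 0.0198, 0.0218 and 0.0308 in edgeR.

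The number called in the list depended on single libraries. It was 3 without any of the control replicates 1, 2 or 3 in turn, 16 without labelled knockout replicate 1, 2 without labelled knockout replicate 2 and 5 without labelled knockout replicate 3. Over all loci 373 were called, 161 higher and 212 lower, or 43.2% higher, and with library size as the only scaling the share was 54.4% of 340. At a fold change over 2 with an unadjusted p under 0.01 it was 66.2% of 142, 94 higher and 48 lower. Leaving out a control replicate gave 166, 113 and 141 loci for replicates 1 to 3, and leaving out labelled knockout replicate 1 gave 633 and replicate 2 gave 162. SMAD9 and ID2 kept an adjusted p under 0.05 in all 16 alternatives, from 4.73e-08 to 0.0145 and from 1.09e-07 to 0.0229. NOG lost it in each of the 6 fits that left out a library, with an adjusted p up to 0.156, and ENG lost it in 4 of them, with the replicate block, at 0.0953, with library size only, at 0.074, and with limma-voom, at 0.0535. Over all 16 alternatives the log2 fold change lay between -0.72 and -0.58 for NOG. For ENG it lay between -0.47 and -0.33.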

How the data were processed

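The authors sequenced total RNA as 150-bp paired-end reads, and the submitters' processing notes name fastp 0.20.1, HISAT2 2.0.4 and hg38. The deposited values were whole counts per locus for 22354 loci in 6 libraries. The study's methods name fastp for mapping and HISAT2 for counting; the annotation and strand setting were not given in the sources used here. Loci were matched by symbol to GENCODE 44 (19985 matched). R 4.3.3 with edgeR 4.0.16 was used for TMM scaling, the default low-count filter (14860 loci kept) and the robust quasi-likelihood test, group against group, with Benjamini-Hochberg adjustment over all kept loci. Intervals are at 95%. DESeq2 1.42.0 and limma-voom (limma 3.58.1) were alternatives, and the fits were tested on simulated data. The genes and lists were chosen with earlier results of these data known. Genes named were the 9, BMAL1, listed pathway genes past the threshold and the most abundant of each role, 5 neighbours on each side of INHBB, the 5 most like it, and markers by list; ORC4 and INHBA-AS1 were added for overlap, and NR1D1, NR1D2, DBP, CIART, PTPRC, KRT18 and KRT8, with their alternatives, after seeing the data. Replicates of a group differed by 5.41 to 45 times the counting variance; separate cultures and separate preparations of 1 RNA cannot be told apart. Protein features were not analysed here. The value of 1 listed marker is not reported here.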

Additional observations from a re-analysis of the deposited data

How the results depend on the processing

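The count of loci called, 373, was 1062 with the GC trend removed, 815 with replicate block and GC trend removed, 635 with DESeq2, 142 at a fold change over 2 with an unadjusted p under 0.01, and 113 to 633 leaving out 1 library. The other pathway genes, 8 called, numbered 14 with the GC trend removed, with or without the replicate block, 13 with DESeq2, and 2 to 16 leaving out 1 library; the cause was not tested. The replicate block alone called 277 loci and 8 pathway genes. Same-numbered libraries deviated from their group means with r of -0.09, -0.052 and -0.005, so the numbers do not pair them. Among genes followed through the alternatives, the block ended the ENG call, brought FN1 past the threshold (edgeR, adjusted p = 0.0451) and changed no other call; other named genes were not followed. INHBB lay between -1.66 and -1.30 in log2 fold change over 16 alternatives, -1.52 with the block. The 7 other fitted genes gave 112 values under alternatives, of which 0 had an adjusted p under 0.05 (lowest 0.166). INHA changed sign under 2 alternatives and ACVR1B under 1. With 33 counts of INHBB and 21 of FST in labelled knockout replicate 2, the lowest of each, counting limits what these values resolve. Lost calls among pathway genes came mostly from leaving out a library, which also leaves fewer samples: BMPER was lost in 2 of 6 such fits, CDKN2B and SMAD6 in 5 and ID4 in 4. Over the 16 alternatives the log2 fold change was -1.03 to -0.75 for BMPER and 0.62 to 0.73 for CDKN2B. It was 0.54 to 0.74 for SMAD6 and 1.23 to 1.98 for ID4. FN1, GREM1 and FKBP1A passed with the GC trend removed (adjusted p 0.0373, 0.0101 and 0.0234 in edgeR).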
